A study of Mus musculus with 8 samples.

Results

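The 10 genes of immune checkpoint signalling followed here in nuclear RNA of 8 mouse livers were the receptor genes Pdcd1, Ctla4, Lag3, Havcr2, Tigit and Tnfrsf9, the ligand genes Cd274 and Pdcd1lg2, the ectoenzyme gene Entpd1 and the transcription factor gene Tox. They were found by symbol among the 32285 genes of the count matrices, and all 10 were present under 1 gene ID each. All 8 animals were male DIAMOND mice, labelled 129A1/SvIm and C57BL/6J cross mice, a line that develops fatty liver disease and liver tumours on a diet rich in fat and sugar. The WD tumour group (n = 3 mice) received Western diet for 48 weeks and developed hepatocellular carcinoma. The other 5 mice were switched from Western diet to standard chow at 36 weeks of feeding, and form the groups RD tumour (n = 2 mice) and RD no tumour (n = 3). Carcinoma was found in the RD tumour livers and was not detected in the RD no tumour livers. The labels give 48 weeks as the final age of all 8 mice, whereas feeding is stated to begin at an age of 2 months, so that 48 weeks of it would end later; age was therefore not used. No group fed chow throughout was analysed here, and whether the sampled piece held tumour tissue is not given in the sources used here. Livers were snap-frozen and nuclei were profiled with the Chromium 3′ chemistry, which counts captured RNA molecules by unique molecular identifiers (UMIs). Counts were summed per liver and, within a liver, per class of nuclei, and expressed per 1000000 UMIs of that sum (CPM).

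Checkpoint receptors are surface proteins that dampen or tune T-cell and natural killer (NK) cell activity. PD-1, the product of Pdcd1, binds PD-L1 and PD-L2 (Cd274 and Pdcd1lg2), which antigen-presenting cells and, for PD-L1, many tissue cells carry. CTLA-4 competes for the costimulatory ligands CD80 and CD86 and is abundant on regulatory T cells. LAG-3, TIM-3 (Havcr2) and TIGIT are further inhibitory receptors, while 4-1BB (Tnfrsf9) is a costimulatory receptor induced on activated lymphocytes. TIM-3 and CD39 (Entpd1) are also made by macrophages. CD39 removes phosphates from extracellular ATP, the first step towards adenosine. TOX is a nuclear factor required for the exhausted state of T cells exposed to antigen for long, and it is also made in developing thymocytes.

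The genes differ in length and neighbourhood, which bears on how nuclear reads can be assigned. In the GRCm38 annotation (GENCODE M21) Lag3 spans 7345 bases on chromosome 6 and Tox spans 305205 bases on chromosome 4. Levels of different genes are therefore not compared with each other here. Cd274 (chromosome 19, 29367455 to 29388095) and Pdcd1lg2 (chromosome 19, 29410919 to 29471161) are neighbours on the same strand. Tnfrsf9 lies across from Camta1 on the opposite strand, and Tox, Cd274 and Pdcd1lg2 each overlap an annotated antisense gene; reads of such pairs are assigned correctly only if strand was used in counting, which is not given in the sources used here. Entpd1 holds pseudogenes and a sense intronic gene on its own strand, so its reads could be shared with them.

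The RefSeq promoter table for GRCm38.p6 held entries for 8 of the 10 genes, Lag3 and Tox being without one. The 250 bases upstream of the annotated start are shown for the PD-1 gene and its ligand genes, which form one receptor and ligand system, and for Havcr2, which was read in both T-gated and myeloid-gated nuclei below. The strands and positions are chr1:94052554-94052803 (minus strand) for Pdcd1, chr19:29367188-29367437 (plus) for Cd274, chr19:29410669-29410918 (plus) for Pdcd1lg2 and chr11:46454681-46454930 (plus) for Havcr2. All are read 5′ to 3′ towards the gene, and capitals mark matches, on either strand, to the motifs named after them.
Pdcd1: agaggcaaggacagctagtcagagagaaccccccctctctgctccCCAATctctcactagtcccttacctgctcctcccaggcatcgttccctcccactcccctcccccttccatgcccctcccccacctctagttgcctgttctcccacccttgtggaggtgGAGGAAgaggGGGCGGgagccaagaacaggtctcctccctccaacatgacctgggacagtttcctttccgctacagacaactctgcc
Cd274: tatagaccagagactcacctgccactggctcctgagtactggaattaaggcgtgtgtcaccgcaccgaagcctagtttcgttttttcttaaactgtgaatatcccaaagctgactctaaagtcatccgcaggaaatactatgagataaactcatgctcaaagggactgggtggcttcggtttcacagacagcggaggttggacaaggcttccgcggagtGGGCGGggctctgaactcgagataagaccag
Pdcd1lg2: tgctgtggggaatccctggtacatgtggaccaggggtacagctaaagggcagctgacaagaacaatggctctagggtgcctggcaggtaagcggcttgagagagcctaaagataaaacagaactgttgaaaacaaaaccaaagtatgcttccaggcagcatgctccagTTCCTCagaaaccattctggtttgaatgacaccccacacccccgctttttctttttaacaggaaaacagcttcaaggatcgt
Havcr2: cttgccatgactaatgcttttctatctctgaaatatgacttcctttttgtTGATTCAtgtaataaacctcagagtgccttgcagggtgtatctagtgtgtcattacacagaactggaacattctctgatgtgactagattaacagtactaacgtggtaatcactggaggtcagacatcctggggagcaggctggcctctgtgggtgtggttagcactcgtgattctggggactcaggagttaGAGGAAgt

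In all, 8 short motifs were searched on both strands in these windows. The letters GAGGAA, the core bound by PU.1 (a myeloid and B-cell factor), were found in Pdcd1, Pdcd1lg2 and Havcr2, and in 23.3% of the 32851 promoter windows of the table. An AP-1 site (TGANTCA) was found in Havcr2 and in 6.75% of all windows. A GC box (GGGCGG) was found in Pdcd1 and Cd274, at 77 and 31 bases before the start, and in 32.7% of all windows, and a CAAT box (CCAAT) in Pdcd1 and in 33.8%. An interferon response element core (2.98% of windows), TTCNNNGAA, a STAT site (7.02%), TGGAAA, an NFAT core (18.6%), and TATAAA (12.4%) were not found in these 4 windows. The Pdcd1 window had a GC content of 60.4% and the other 3 had 44.8% to 50.4%, against a median of 52.4% over all windows. A match describes the letters only and was not tested as a binding site.

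Each liver, taken from a separate mouse, gave 1 library of 17948627 to 34363108 UMIs, with 6048 to 20000 nuclei of at least 300 detected genes. The median share of mitochondrial UMIs in a nucleus was 7.91% in WD tumour 1 and 7.51% in WD tumour 3. In the other livers it was 1.30% to 3.28%. Nuclei were assigned to a class when at least 3 markers of that class were detected and more than of any other; none of the 10 genes was a marker. Genes that were not used for assignment checked the classes: 6 further T-cell genes summed to 569 to 971 CPM in T-gated nuclei of 7 livers and to 6.74 to 42.6 CPM in their hepatocyte-gated nuclei, with none of the 6 at 0 in the T-gated nuclei. The liver RD tumour 1 stood apart. It had exactly 20000 barcodes, 2 T-gated and no NK-gated nuclei, and 62.1% of its nuclei passed the myeloid gate. In that liver the 6 further myeloid genes were nearly as high in hepatocyte-gated as in myeloid-gated nuclei (2075 and 2589 CPM), and neutrophil markers reached 2979 CPM against 32.5 to 920 CPM in the other livers. WD tumour 2 (875 against 983 CPM for the same myeloid genes) and RD no tumour 1 were the next richest in myeloid-gated nuclei, at 50.7% and 34.6%; the other 5 livers had 9.52% to 21.4%. Where a stricter gate asked that the class markers exceed the level of free RNA in the library, 44 of the 12412 myeloid-gated nuclei of RD tumour 1 remained, and between 182 and 502 in each other liver. The 8 livers shared between 8 and 65 barcode sequences per pair of libraries.

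Summed over all nuclei, most of the 10 genes were sparse, and the livers of 1 group often differed more than the groups did. In a sum over all nuclei, fewer cells of a type and less RNA per cell cannot be told apart. Pdcd1 gave 34, 61 and 11 UMIs in the WD tumour livers, 100 and 12 in the RD tumour livers and 72, 12 and 4 in the RD no tumour livers. Ctla4 gave 31, 47 and 37 UMIs in WD tumour livers, 158 and 45 in RD tumour and 132, 45 and 48 in RD no tumour livers. RD tumour 1, the deepest library, had the most UMIs of both genes and RD no tumour 1 the next most; as a share of the library, WD tumour 2 (2.71 CPM of Pdcd1) came between them (2.91 and 2.47 CPM). The ranges of the 3 groups overlapped for both genes. Lag3 stayed between 16 and 60 UMIs in every liver; as a share of the library RD no tumour 2 was highest (2.52 CPM) and RD tumour 2 next (2.20 CPM). Tnfrsf9 gave 25, 80 and 64 UMIs in WD tumour livers, 181 and 82 in RD tumour and 187, 68 and 75 in RD no tumour livers. Havcr2 was lowest in WD tumour 3 with 76 UMIs and highest in WD tumour 2 with 256, the lowest and the highest liver being of the same group.

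Tigit and Cd274 were set apart by RD tumour 1. Tigit gave 520 UMIs there, 7 in RD tumour 2, 16, 19 and 19 in the WD tumour livers and 33, 12 and 73 in the RD no tumour livers. As a share of the library this was 15.1 CPM in RD tumour 1 and 0.257 to 2.27 CPM in the other 7. Cd274 gave 4972 UMIs (145 CPM) in RD tumour 1, 405 (14.9 CPM) in RD tumour 2, 207, 877 and 347 (11.5, 39.0 and 14.1 CPM) in WD tumour and 1550, 174 and 225 (53.2, 7.68 and 6.99 CPM) in RD no tumour livers. The 3 livers highest in Cd274 were the 3 richest in myeloid-gated nuclei, 1 in each group. Pdcd1lg2 was highest in WD tumour 2 with 510 UMIs (22.7 CPM), and the other 2 livers of that group were the lowest of all 8 with 26 and 29 UMIs. Entpd1, which removes extracellular ATP, ranged from 28.6 CPM in RD no tumour 3 to 100.1 CPM in RD no tumour 1, again the limits of the whole set within 1 group.

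**Figure D1:**
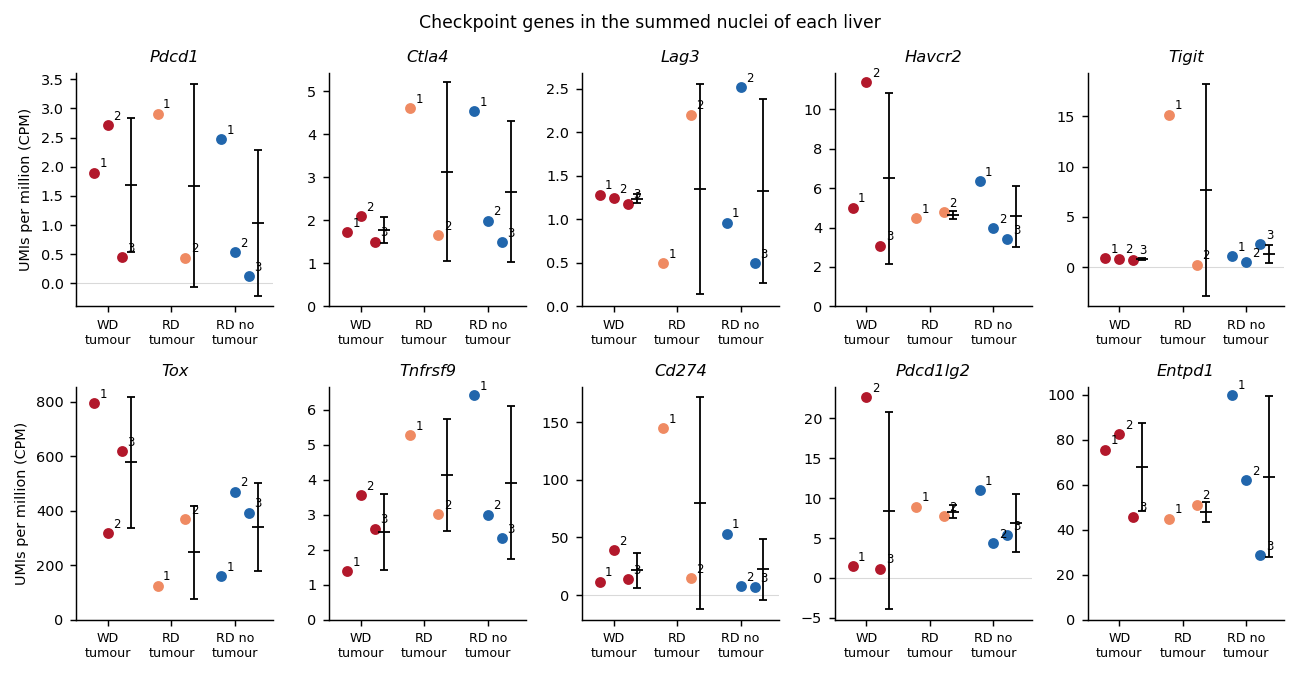
Level of each of the 10 genes summed over all nuclei of a liver, in UMIs per 1000000 (CPM, linear axes, 1 panel per gene); each numbered point is 1 liver, and the black bar gives the group mean ± SD. RD tumour 1 stands alone in Tigit (15.1 CPM) and Cd274 (145 CPM), and in no gene do the 3 WD tumour livers separate from the 3 RD no tumour livers.

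T-gated nuclei were few, between 96 and 318 in the 7 livers that had enough of them (20 or more), and the levels per liver leave out RD tumour 1. Pdcd1, the PD-1 gene, had a higher level per UMI there than in hepatocyte-gated nuclei: it reached 76.6, 47.4 and 10.1 CPM in the T-gated nuclei of the WD tumour livers, 19.9 CPM in RD tumour 2 and 27.2, 17.7 and 4.57 CPM in the RD no tumour livers. Hepatocyte-gated nuclei of these 7 livers had at most 1.61 CPM, and the T-gated level was the higher in all 7. The Pdcd1 counts behind these values were 18, 8 and 3 UMIs in WD tumour, 3 in RD tumour 2 and 13, 5 and 1 in RD no tumour livers. The exact Poisson interval of the highest of these levels, WD tumour 1, ran from 45.4 to 121 CPM and that of the lowest, RD no tumour 3, from 0.116 to 25.5 CPM; such intervals cover counting error only. The livers of the WD tumour and RD no tumour groups overlapped. T-gated nuclei held 51 of the 306 Pdcd1 UMIs of the 8 livers (16.7%), while the far more numerous myeloid-gated nuclei held 160 (52.3%), at a median level of 1.11 CPM. Of these 160 UMIs, 77 came from the RD tumour livers, so the summed share depends on the myeloid gate of RD tumour 1.

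Ctla4 was likewise higher in T-gated than in hepatocyte-gated nuclei of all 7 livers. T-gated nuclei held 15.1% of its UMIs and myeloid-gated nuclei 39.4%. The RD tumour livers gave 134 of the 214 myeloid-gated UMIs, so these summed shares also depend on the myeloid gate of RD tumour 1. Ctla4 reached 51.1, 65.1 and 43.8 CPM in the T-gated nuclei of the WD tumour livers, 6.65 CPM (1 UMI) in RD tumour 2 and 54.4, 53.0 and 18.3 CPM in the RD no tumour livers. The low value of RD tumour 2 had an upper Poisson limit of 37.0 CPM, below all 3 WD tumour levels but within the lower part of their own intervals. Lag3 was detected in the T-gated nuclei of 4 livers, at 21.3 and 35.5 CPM in WD tumour 1 and 2 and 12.5 and 14.1 CPM in RD no tumour 1 and 2. It gave no UMI in WD tumour 3, RD tumour 2 and RD no tumour 3, where a limit of 3 UMIs stands for 10.1, 19.9 and 13.7 CPM; this limit is set differently from the two-sided Poisson intervals, which reach 12.4, 24.5 and 16.9 CPM. Havcr2 was seen in the same 4 livers, at 21.3, 82.9, 23.0 and 14.1 CPM. WD tumour 2, the highest in Havcr2, also had the most RNA of further myeloid genes in its T-gated nuclei (1024 CPM against 201 to 790 CPM in the other 6), and the part of this RNA in the Havcr2 level was not tested.

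Tigit and the costimulatory receptor gene Tnfrsf9 rested on very few UMIs in T-gated nuclei. Tigit gave 17.0, 35.5 and 16.8 CPM in WD tumour livers (4, 6 and 5 UMIs), 19.9 CPM in RD tumour 2 and 8.36, 3.53 and 0 CPM in RD no tumour livers (4, 1 and 0 UMIs). Every WD tumour liver lay above every RD no tumour liver in Tigit, as one group did above the other for 7.88% of the genes tested in T-gated nuclei, among which Tigit was not. Tnfrsf9 gave 0, 17.8 and 3.37 CPM in WD tumour livers, 33.2 CPM in RD tumour 2 and 35.5, 17.7 and 13.7 CPM in RD no tumour livers, and these groups overlapped. Neither gene had enough UMIs to pass the low-count filter of the T-cell fit, so neither difference was tested. Over the 7 livers the median levels of Pdcd1, Ctla4, Lag3, Tigit and Tnfrsf9 in T-gated nuclei were 19.9, 51.1, 12.5, 16.9 and 17.7 CPM. Those of the myeloid, endothelial, stellate and hepatocyte classes, over 8 livers, were 0 to 3.12 CPM for these 5 genes, with ranges that overlapped one another.

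NK-gated nuclei numbered 83 in all, and 20 or more were found only in RD no tumour 1 (29 nuclei). There Tnfrsf9 gave 20 UMIs, 475 CPM with an exact Poisson interval of 290 to 734 CPM, which is 10.7% of the Tnfrsf9 UMIs of that liver. The T-gated nuclei of the same liver had 35.5 CPM. In these 29 nuclei further NK genes summed to 1450 CPM, further T-cell genes to 927 CPM and further myeloid genes to 1069 CPM, and 28 of the 29 also had at least 2 markers of a second class; the part of such RNA in the Tnfrsf9 level was not tested. In the other livers 0 to 2 UMIs of Tnfrsf9 came from 0 to 17 NK-gated nuclei, so the level could not be compared between groups. Ctla4 and Lag3 each gave 3 UMIs (71.3 CPM) in the NK-gated nuclei of RD no tumour 1.

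**Figure D2:**
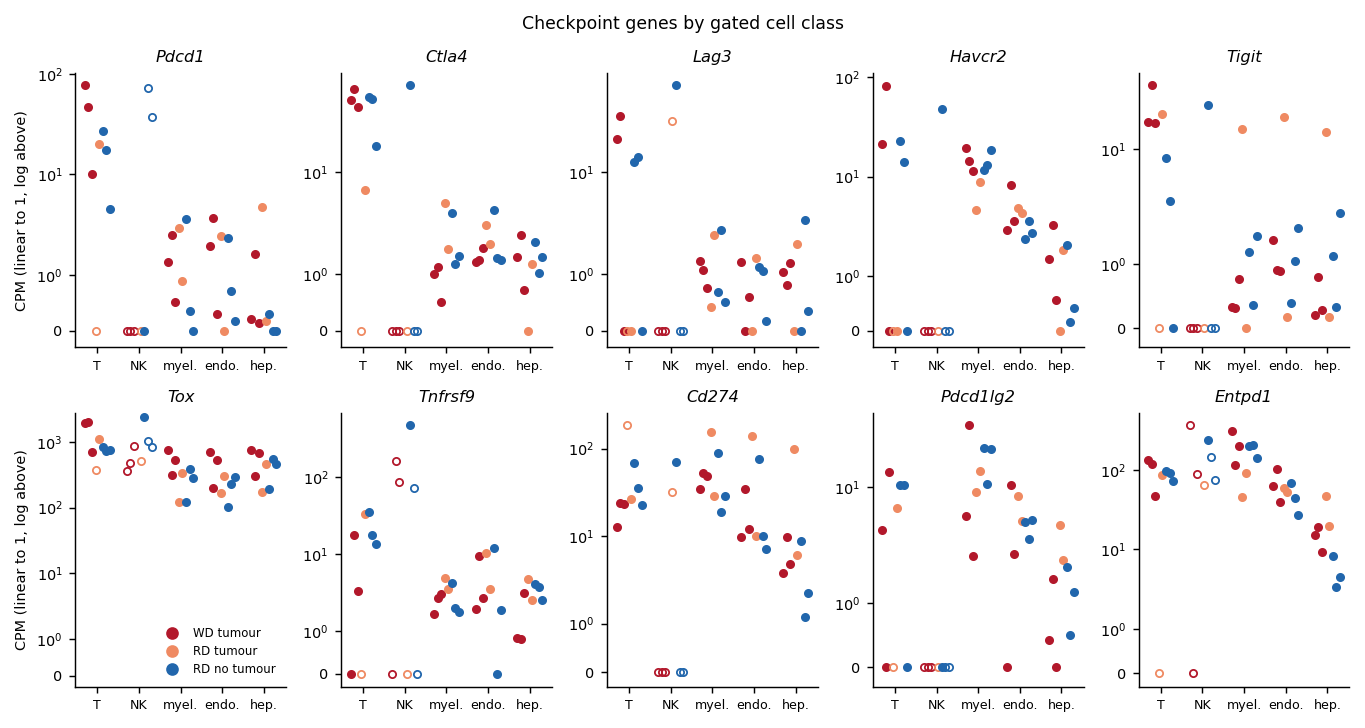
Level of each gene in T-, NK-, myeloid-, endothelial- and hepatocyte-gated nuclei (CPM, axis linear up to 1 and logarithmic above); each point is 1 liver, coloured by group, and open points rest on fewer than 20 nuclei. Pdcd1 and Ctla4 are higher in T-gated than in hepatocyte-gated nuclei of all 7 livers with enough T-gated nuclei, and Cd274 and Pdcd1lg2 are higher in myeloid-gated than in hepatocyte-gated nuclei of all 8. The single high Tigit point in the myeloid, endothelial and hepatocyte classes is RD tumour 1 in each.

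Within T-gated nuclei the receptor genes could be read against one another. Of 1012 such nuclei in the 8 livers, 2 of them from RD tumour 1, 43 had a Pdcd1 UMI and 63 a Ctla4 UMI, and 8 had both. Among all T-gated nuclei, RNA of the exhaustion-linked factor gene Tox was detected in 72 of 100, 75 of 96 and 63 of 133 in WD tumour livers. It was detected in 1 of 2 and 58 of 105 in RD tumour and 151 of 318, 71 of 139 and 50 of 119 in RD no tumour livers. WD tumour 1 and 2 gave 14 and 7 of the 43 nuclei with Pdcd1, so sums over livers also reflect which livers these came from. Tox was detected in 38 of the 43 nuclei with Pdcd1. Their summed Tox level was 2525 CPM, against 973 CPM in T-gated nuclei without a Pdcd1 UMI, with a mean depth of 2054 and 1804 UMIs per nucleus. Taken liver by liver, Tox was the higher in Pdcd1-positive nuclei of 5 of 7 livers, the exceptions being WD tumour 3 and RD tumour 2 with 3 such nuclei each. The same direction was seen in nuclei with Lag3 (2367 against 1018 CPM, 4 of 4 livers) and with Havcr2 (2666 against 995 CPM, 4 of 4 livers). Tnfrsf9 gave 5 of 6 livers in this direction. For other members the livers were divided: nuclei with Ctla4 (1394 against 1022 CPM) had the higher Tox level in 4 of 7 livers, nuclei with Tigit (1971 against 1029 CPM) in 3 of 6 and nuclei with Entpd1 (1318 against 993 CPM) in 3 of 7.

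Another gene was read in the same way. Ikzf2, which encodes the regulatory T-cell factor Helios, summed to 1186 CPM in the 63 T-gated nuclei with Ctla4 and to 256 CPM in those without. It was the higher in all 7 livers, by little in WD tumour 1 (446 against 346 CPM) and from 1 nucleus in RD tumour 2. The direction was the same for nuclei with Tnfrsf9 (1000 against 289 CPM, 4 of 6 livers) and with Pdcd1 (532 against 309 CPM, 5 of 7 livers). Foxp3, which defines regulatory T cells, gave only 21 UMIs in T-gated nuclei, 5 of them in nuclei with Ctla4. Cd8a was about level between nuclei with and without Pdcd1 (102 and 124 CPM, 9 and 217 UMIs). These levels describe nuclei within the same livers; the pairs of genes were chosen after the values had been seen and no test was made.

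The PD-1 ligand genes were read mainly in myeloid-gated nuclei, which held 70.1% of all Cd274 UMIs and 72.3% of all Pdcd1lg2 UMIs in the 8 livers. Cd274 reached 35.0, 53.3 and 48.7 CPM in the myeloid-gated nuclei of WD tumour livers, 153 and 29.0 CPM in RD tumour livers and 89.0, 18.7 and 28.6 CPM in RD no tumour livers. It was above the hepatocyte-gated level in all 8 livers, by the smallest ratio in RD tumour 1, where hepatocyte-gated nuclei had 98.6 CPM and endothelial-gated nuclei 139 CPM. In the other 7 livers hepatocyte-gated nuclei had 1.18 to 9.67 CPM of Cd274. Pdcd1lg2 reached 5.67, 34.9 and 2.54 CPM in WD tumour livers, 9.07 and 13.9 CPM in RD tumour and 21.8, 10.8 and 21.6 CPM in RD no tumour livers, and WD tumour 1 and 3 were the lowest. T-gated and B-gated nuclei also carried Cd274, at medians of 23.7 and 17.3 CPM against 41.9 CPM in the myeloid class. B-gated nuclei had a Pdcd1lg2 median of 16.1 CPM (11 UMIs in 6 livers) against 12.3 CPM in the myeloid class. The ranges of these classes overlapped for both genes.

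Further myeloid genes were read in T-gated and hepatocyte-gated nuclei too, so levels were also followed by the number of myeloid markers detected in a nucleus, from 1 or 2 up to 8 or more of 22. Cd274, Pdcd1lg2 and Havcr2 were higher at 8 or more markers than at 1 to 2 in all 8 livers, and Entpd1 in 7 of 8. Leaving RD tumour 1 aside, the ratio was 3.59 to 11.8 for Cd274, 2.76 to 21.3 for Pdcd1lg2, 3.14 to 38.1 for Havcr2 and 3.64 to 53.4 for Entpd1. In RD tumour 1 it was 1.39 for Cd274, 1.21 for Pdcd1lg2, 2.04 for Havcr2 and 0.934 for Entpd1. Thus Cd274 in RD tumour 1 was already at 125 CPM in nuclei with 1 to 2 myeloid markers and at 175 CPM with 8 or more, while WD tumour 1 went from 5.87 to 50.4 CPM. Tox went the other way, with a ratio under 1 in all 8 livers (0.323 to 0.889).

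Tigit in RD tumour 1 did not follow any class. Its 520 UMIs were spread over 504 nuclei, where an even spread in proportion to nuclear depth would give 509, and the level was 14.8 CPM in myeloid-gated, 18.9 CPM in endothelial-gated and 14.1 CPM (3 UMIs) in hepatocyte-gated nuclei of that liver. In the 7 other livers the level in myeloid-gated nuclei was 0 to 1.75 CPM. Cd274 in RD tumour 1 was somewhat more clustered, 4972 UMIs in 3868 nuclei against 4160 for an even spread. With the stricter myeloid gate, Cd274 stood at 124 CPM in RD tumour 1 (44 nuclei) and at 48.7 to 169 CPM in the other livers, RD no tumour 1 then being the highest and RD tumour 1 within the range of the rest.

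**Figure D3:**
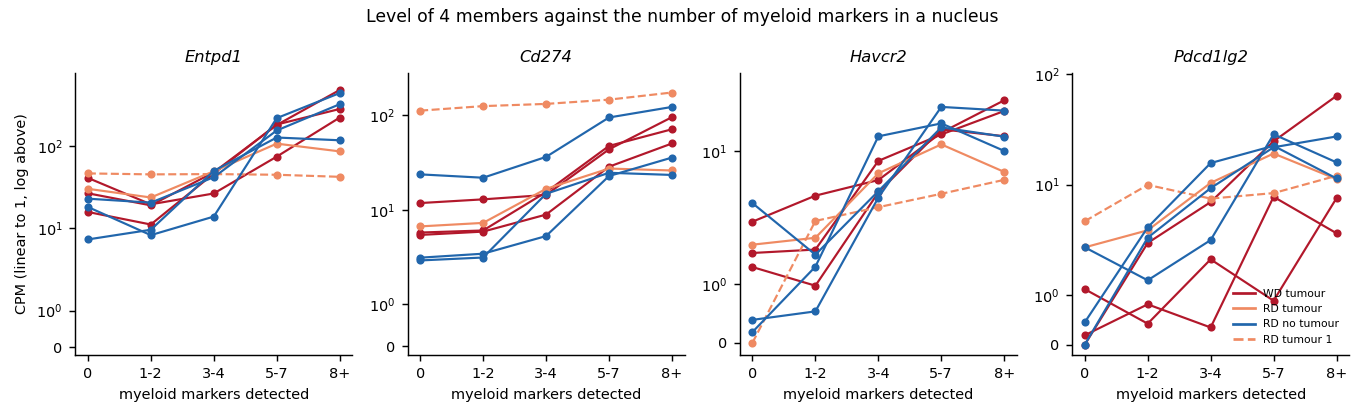
Level of Entpd1, Cd274, Havcr2 and Pdcd1lg2 (CPM, axis linear up to 1 and logarithmic above) in nuclei grouped by the number of myeloid markers detected; each line is 1 liver, coloured by group, and the dashed line is RD tumour 1. Entpd1 is flat in RD tumour 1 (45.5 CPM at 1 to 2 markers and 42.5 CPM at 8 or more) and is higher at 8 or more markers in each of the 7 others.

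Entpd1, whose product starts the conversion of extracellular ATP to adenosine, had 72.0% of its UMIs in myeloid-gated nuclei. Its level in myeloid-gated nuclei was 308, 115 and 201 CPM in the WD tumour livers, 44.9 and 90.4 CPM in the RD tumour livers and 198, 205 and 139 CPM in the RD no tumour livers. Both RD tumour livers lay below all 6 others; with this group of 2 livers, groups were apart for 19.7% of all genes tested in myeloid-gated nuclei against RD no tumour and for 23.2% against WD tumour. Under the stricter gate the levels were 1020, 356 and 524 CPM in WD tumour livers, 23.9 and 241 CPM in RD tumour and 528, 650 and 317 CPM in RD no tumour livers, and both RD tumour livers were again the lowest. Over the livers the order of the class medians was myeloid (168.5 CPM), T (91.9 CPM), endothelial (55.7 CPM), B (47.2 CPM), stellate (12.4 CPM), hepatocyte (12.2 CPM) and cholangiocyte (6.47 CPM), and the ranges of neighbours in this order overlapped except for B (38.8 to 110 CPM) and stellate (7.72 to 30.1 CPM).

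In myeloid-gated nuclei Havcr2, the TIM-3 gene, was lowest in the RD tumour livers as Entpd1 was, while the other 6 livers were ordered differently. Its levels were 19.3, 14.5 and 11.4 CPM in WD tumour livers (58, 187 and 45 UMIs), 4.62 and 8.85 CPM in RD tumour livers (110 and 70 UMIs) and 11.6, 13.1 and 18.5 CPM in RD no tumour livers (137, 73 and 74 UMIs). The RD tumour livers were again below the other 6. Groups were apart for 2 of 10 members against RD no tumour, where 19.7% of all genes were. Against WD tumour they were apart for 4 of 10 members and 23.2% of all genes. The stricter gate kept 44 of 12412 myeloid-gated nuclei in RD tumour 1, 198 of 1775 in RD tumour 2 and 269 of 3581 in WD tumour 2. Outside the RD tumour group WD tumour 2 was the lowest liver in Entpd1, while its Havcr2 level (14.5 CPM) lay within the range of the others. The part of nuclei with little myeloid RNA of their own in these levels was not tested.

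Tox was read in every class, and T-gated nuclei held only 1.29% to 8.52% of its UMIs in the 7 livers with enough of them. The level in T-gated nuclei was 1907, 2024 and 698 CPM in WD tumour livers, 1083 CPM in RD tumour 2 and 828, 717 and 745 CPM in RD no tumour livers. WD tumour 1 and 2 were the highest, while WD tumour 3 was the lowest of the 7, so that the groups overlapped. Hepatocyte-gated nuclei of the same livers had 758, 301 and 675 CPM in WD tumour, 461 CPM in RD tumour 2 and 189, 555 and 457 CPM in RD no tumour livers. The T-gated level was the higher in all 7, by little in WD tumour 3 (698 against 675 CPM). T-gated nuclei also held RNA of genes of hepatocytes. Over all livers Tdo2 gave 864 CPM in T-gated and 1580 CPM in hepatocyte-gated nuclei, and Fgl1 gave 1053 and 734 CPM. The part of hepatocyte RNA in the T-gated Tox level was not tested. Tox UMIs were concentrated in part of the nuclei: those with 5 or more held 86.0% of the Tox UMIs in WD tumour 1, but 9.08% in RD tumour 1 and 39.2% in RD no tumour 1, and the highest single nucleus of a liver had 21 to 163.

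Hepatocyte-gated nuclei differed by zone. They were split by 8 pericentral genes (around the central vein, such as Glul and Cyp1a2) and 8 periportal genes (such as Cyp2f2 and Hal), a split chosen after the values had been seen. Pericentral nuclei had 1407, 686 and 1344 CPM of Tox in WD tumour livers, 985 and 1161 CPM in RD tumour livers and 523, 1535 and 1183 CPM in RD no tumour livers. Periportal nuclei had 609, 200 and 514 CPM in WD tumour livers, 267 and 225 CPM in RD tumour livers and 93.9, 248 and 142 CPM in RD no tumour livers. The pericentral level was the higher in all 8 livers, although RD tumour 1 gave only 2 pericentral nuclei. It also exceeded the T-gated Tox level of the same liver in WD tumour 3, RD tumour 2 and RD no tumour 2 and 3. In WD tumour 1 and 2 and RD no tumour 1 it was below the T-gated level. The ratio of pericentral to periportal level was 2.31, 3.44 and 2.61 in WD tumour livers, 3.68 and 5.15 in RD tumour livers and 5.57, 6.19 and 8.31 in RD no tumour livers. Every WD tumour liver was thus below every RD no tumour liver. The ratio of RD tumour 1 (3.68) rests on 4 pericentral Tox UMIs, too few to place it above WD tumour 2 (3.44). This order of ratios was not tested, and the share of all genes with such an order was not computed. Median depth differed between the zones in some livers (1126 and 2480 UMIs per nucleus in WD tumour 1).

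**Figure D4:**
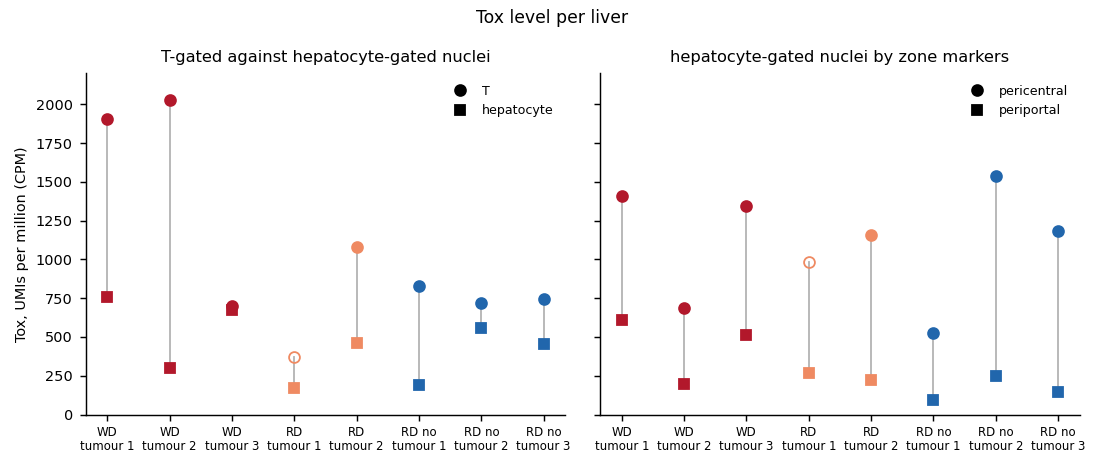
Tox level per liver (CPM, linear axis): on the left T-gated (circles) and hepatocyte-gated nuclei (squares), on the right hepatocyte-gated nuclei with pericentral (circles) and periportal (squares) markers; colours give the group and open symbols rest on fewer than 20 nuclei. Pericentral levels exceed periportal levels in all 8 livers, and the T-gated levels of WD tumour 1 and 2 (1907 and 2024 CPM) exceed those of the other livers.

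Differences between the groups were tested with edgeR's quasi-likelihood test over all genes, with the liver as the replicate and p-values adjusted over every gene tested (Benjamini-Hochberg, threshold 0.05). WD tumour against RD no tumour differs in both diet and tumour, RD tumour against RD no tumour holds the diet change fixed and differs in tumour, and WD tumour against RD tumour compares the diets among tumour-bearing livers. The contrasts share livers and are not independent of each other. In the whole library all 10 genes were tested and 0 passed in any of the 3 contrasts, as did 0% of the 19087 genes tested. DESeq2 also called 0 of the 10, while it called 0.189%, 0.335% and 0.571% of all genes in the 3 contrasts in the order given. At an unadjusted p under 0.05 edgeR had 0, 0 and 1 of the 10 genes, against 2.75%, 6.7% and 7.56% of all genes. Groups that did not overlap were seen for 0 of the 10 in each contrast, against 10.7%, 16.7% and 21.4% of all genes. The gene with the low unadjusted p was Tigit in WD tumour against RD tumour, at a log2 fold change of -3.23 ± 1.29 (edgeR, SE; adjusted p = 0.59).

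That Tigit difference and its counterpart against RD no tumour (2.51 ± 1.25, adjusted p = 0.612) rest on RD tumour 1. Without that liver they were 1.76 and -2.48, with the opposite sign. With RD tumour 1 alone in its group, Tigit was called in both contrasts (adjusted p = 0.0142 and 0.0197), as were 4438 and 4569 of 19873 genes. Cd274 in RD tumour against RD no tumour had a log2 fold change of 1.86 ± 1.13 (adjusted p = 0.612) and of -0.66 without RD tumour 1. For Tox in WD tumour against RD no tumour it was 0.71 ± 0.59 (adjusted p = 1), with 577 ± 241 CPM (SD, n = 3) against 341 ± 161 CPM (SD, n = 3). In the 3 contrasts, in the order given, 5, 6 and 3 of the 10 genes had a fold change above 0.

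In T-gated nuclei only WD tumour against RD no tumour could be tested, with 3 livers each. Of the 10 genes, 6 passed the low-count filter, and 0 of them and 0% of 7022 genes were called by edgeR; DESeq2 called 0 as well. No member and 2.76% of the 7022 genes had an unadjusted p under 0.05. Tox had a log2 fold change of 1.00 ± 0.46 (SE; unadjusted p = 0.0563, adjusted p = 1) and 2 of 3 WD tumour livers were above every RD no tumour liver. No member that was tested had groups apart, against 7.88% of the genes tested. Cd274 had -1.19 ± 0.56 (unadjusted p = 0.0605, adjusted p = 1), and Pdcd1 1.22 ± 0.77 (adjusted p = 1). Ctla4 (0.22 ± 0.44) and Entpd1 (0.12 ± 0.40) had fold changes smaller than their standard errors, and Havcr2 had 1.16 ± 1.23.

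In myeloid-gated nuclei all 10 genes were tested and 0 passed in any contrast, as did 0% of 16204 genes by edgeR; DESeq2 called 0 of the 10, and 0.0987%, 0.611% and 0.667% of all genes. At an unadjusted p under 0.05 there were 0, 2 and 4 of the 10 genes, against 2.39%, 8.12% and 9.34% of all genes. Entpd1 had a log2 fold change of -1.46 ± 0.48 in RD tumour against RD no tumour (adjusted p = 0.576) and of 1.64 ± 0.49 in WD tumour against RD tumour (adjusted p = 0.52). Havcr2 had -1.14 ± 0.41 (adjusted p = 0.576) and 1.19 ± 0.42 (adjusted p = 0.52). These 2 genes were also the members whose groups did not overlap in RD tumour against RD no tumour, where 19.7% of all genes had groups apart. In WD tumour against RD tumour Ctla4, Tnfrsf9, Havcr2 and Entpd1 had groups apart (23.2% of all genes), and in WD tumour against RD no tumour Ctla4 alone (10.4% of all genes). Ctla4 (-1.93 ± 0.74) and Tigit (-4.13 ± 1.63) completed the 4 genes in WD tumour against RD tumour. The Tigit difference rests on RD tumour 1, at 14.8 CPM, since RD tumour 2 had 0 CPM and the WD tumour livers 0.31 to 0.761 CPM; without RD tumour 1 Tigit did not pass the low-count filter. Without RD tumour 1 the Ctla4 difference was -0.86, that of Entpd1 1.27 and that of Havcr2 0.83 in the same contrast. Leaving out RD tumour 2 moved these calls. With RD tumour 1 then the lone liver of its group, assumed to vary like the other groups, Havcr2 and Tigit were called in RD tumour against RD no tumour (adjusted p = 0.0462 and 0.0127). In WD tumour against RD tumour Ctla4, Havcr2, Tigit and Entpd1 were called (adjusted p = 0.0431, 0.0435, 0.00849 and 0.0434). The same fits called 4150 and 4241 of 16587 genes. Without RD tumour 1 no member was called.

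In endothelial-gated nuclei (654 to 1640 per liver) Havcr2, Tox, Tnfrsf9, Cd274, Pdcd1lg2 and Entpd1 passed the filter. None of the 6 was called in any contrast by edgeR (0% of 14416 genes) or DESeq2 (0.0624%, 0.187% and 0.118% of genes), and none had an unadjusted p under 0.05 (2.01%, 7.05% and 7.31% of genes). The largest fold change relative to its error was that of Tox in WD tumour against RD no tumour, 1.12 ± 0.58 (adjusted p = 1). Entpd1 in endothelial-gated nuclei had 63.1, 102 and 39.9 CPM in WD tumour livers, 58.4 and 52.9 CPM in RD tumour livers and 67.8, 44.4 and 27.2 CPM in RD no tumour livers, above the hepatocyte-gated level of all 8 livers. Of the 6 genes, 0, 1 (Havcr2) and 0 had groups apart in the 3 contrasts, against 9.48%, 19% and 22.3% of genes.

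**Figure D5:**
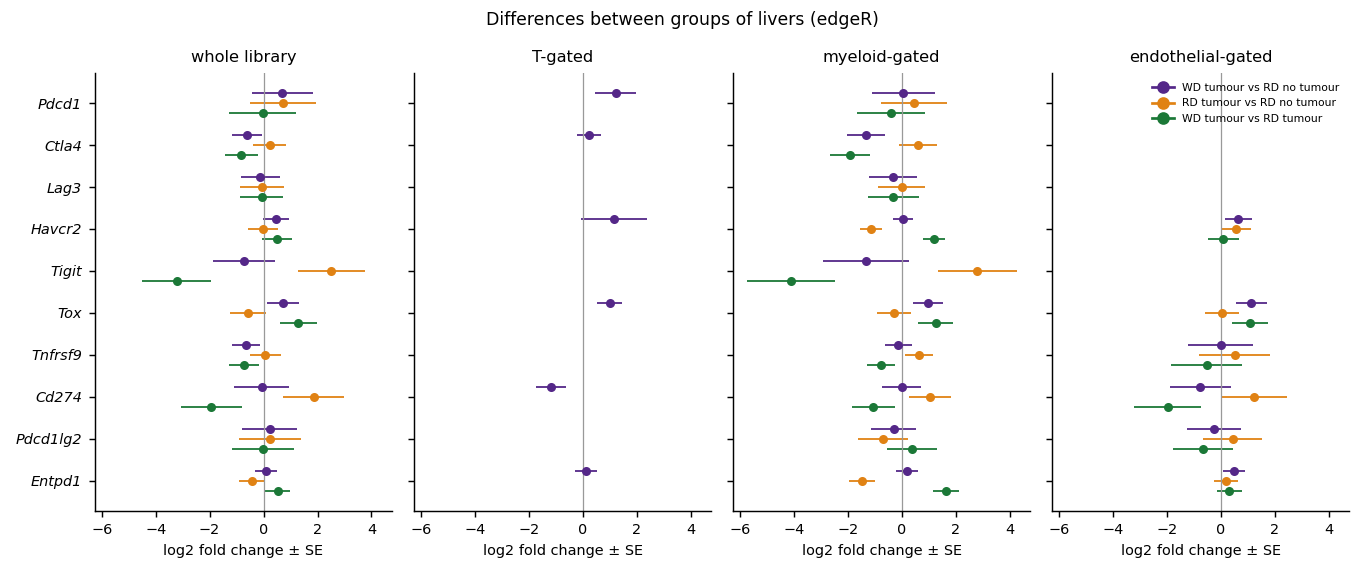
Log2 fold changes with standard errors from edgeR for each gene that was tested, in the whole library and in T-, myeloid- and endothelial-gated nuclei; colours give the 3 contrasts, and a missing point means that the gene did not pass the low-count filter or that the contrast could not be tested. No adjusted p is under 0.05. In myeloid-gated nuclei Entpd1 and Havcr2 lie below 0 in RD tumour against RD no tumour (-1.46 and -1.14) and above 0 in WD tumour against RD tumour (1.64 and 1.19).

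Genes around the checkpoint pathway were read from 4 lists. Of 16 further costimulatory and inhibitory receptors, 15 were tested in the whole library and 0 were called in any contrast; in WD tumour against RD no tumour 7 had a fold change above 0 and 8 below. The members with the most UMIs were Cd38, an NAD-consuming ectoenzyme, Cd244a, a receptor of NK and myeloid cells, and Cd200r1, an inhibitory receptor of myeloid cells. Cd244a reached 206 CPM in WD tumour 2, 90.3 CPM in RD tumour 1 and 93.4 CPM in RD no tumour 1, against 10.6 to 38.2 CPM in the other 5 livers, the same 3 livers that were high in Cd274. Cd200r1 was highest in WD tumour 2 (124 CPM) and RD no tumour 1 (59.1 CPM).

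Of 20 ligand genes of presenting and tissue cells, 17 were tested in the whole library and 0 were called; in WD tumour against RD no tumour 10 lay above 0 and 7 below, with a median log2 fold change of 0.09 against -0.01 over all genes. Fgl1, a hepatocyte product that binds LAG-3, had 292, 1120 and 256 CPM in WD tumour livers, 705 and 554 CPM in RD tumour livers and 1786, 562 and 681 CPM in RD no tumour livers. WD tumour 1 and 3 were below all other livers in Fgl1. Hmgb1, a nuclear protein that TIM-3 can bind, reached 402 CPM in RD tumour 1 and 120 to 173 CPM in the 7 others. Lgals9, whose product galectin-9 is a TIM-3 ligand, ranged from 62.8 CPM in RD tumour 1 to 207 CPM in RD tumour 2. Cd276, a ligand of the B7 family, had 1.28, 2.22 and 1.42 CPM in WD tumour livers and 0.926, 0.441 and 0.404 CPM in RD no tumour livers, a log2 fold change of 1.44 ± 0.48 (adjusted p = 1), with the groups apart. H2-Ab1, a class II antigen presentation gene, had 58.2, 40.3 and 44.0 CPM in WD tumour livers and 37.5, 26.4 and 6.71 CPM in RD no tumour livers, a log2 fold change of 1.01 ± 0.52 (adjusted p = 1). Groups that did not overlap were found for 10.7% of all genes in this contrast.

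All 11 genes of the adenosine pathway and of metabolic suppression were tested in the whole library, 0 were called, and in WD tumour against RD no tumour 4 lay above 0 and 7 below. Tdo2, which degrades tryptophan in hepatocytes, had 1287, 187 and 1127 CPM in WD tumour and 486, 1970 and 1670 CPM in RD no tumour livers, with 521 and 1225 CPM in the RD tumour livers. The 3 lowest of these were the 3 livers richest in myeloid-gated nuclei. Arg1, the arginase of the urea cycle, ranged from 294 CPM in WD tumour 2 to 771 CPM in RD no tumour 3. Ido2, another enzyme of tryptophan breakdown, had 6.05 CPM in RD tumour 1 and 66.3 to 188 CPM in the 7 others. Of 16 transcription factor genes of exhausted and activated T cells, all 16 were tested in the whole library, 0 were called, and in WD tumour against RD no tumour 14 lay above 0 and 2 below, with a median log2 fold change of 0.31 against -0.01 over all genes. In RD tumour against RD no tumour 12 lay above 0 and 4 below, and in WD tumour against RD tumour 6 above and 10 below. The 3 with the most UMIs were Maf (160 to 228 CPM over the 8 livers), Bhlhe40 (36.4 to 87.4 CPM) and Tox4 (25.2 to 41.6 CPM), each highest in RD tumour 1. T-gated nuclei were not the highest class for any of these 3. Maf had 475 CPM in endothelial-gated and 139 CPM in T-gated nuclei over all livers. Tox3, a relative of Tox, had 3.68, 4.58 and 4.07 CPM in WD tumour and 1.61, 2.82 and 2.36 CPM in RD no tumour livers (0.80 ± 0.79, adjusted p = 1), while RD tumour 1 had the lowest and RD tumour 2 the highest level of all 8 livers (0.669 and 10.03 CPM). Its highest class was the cholangiocyte class, at 59.7 CPM over all livers, against 1.09 CPM in T-gated nuclei. The lists gave 0 called genes in the T-, myeloid- and endothelial-gated fits as well.

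The genes most like a member over 53 sums of a class in a liver are a description only. Likeness can come from shared cell classes or from single libraries, since the points share libraries and nuclear depth. Pdcd1 was most like A430093F15Rik (Pearson r = 0.91), Ubash3a (r = 0.87) and Trbc2 (r = 0.86), the last being a constant segment of the T-cell receptor and itself a gate marker. Ctla4 was most like Padi2 (r = 0.88), Cd96 (r = 0.86) and Cracr2a (r = 0.86). Tnfrsf9 was most like the NK receptor genes Klra4 (r = 0.75) and Klra1 (r = 0.74) and Socs1 (r = 0.71). Lag3 was most like the NK genes Ncr1 (r = 0.67) and Klrd1 (r = 0.64) and Ctla4 (r = 0.64). Klra4, Ncr1 and Klrd1 are themselves NK gate markers, and only RD no tumour 1 had enough nuclei to give an NK-gated sum. Entpd1 was most like Prex1 (r = 0.90), Cd84 (r = 0.90) and Myo1f (r = 0.89), genes expressed in blood cells. Tox was most like Atxn1 (r = 0.78), Znrf3 (r = 0.74), a membrane inhibitor of Wnt signalling, and Chn2 (r = 0.70). The remaining best matches were Bend6 for Havcr2 (r = 0.78), Il18rap for Tigit (r = 0.77), Ppp1r18 for Cd274 (r = 0.87) and Nfam1 for Pdcd1lg2 (r = 0.71).

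The share of nuclei in each class was read beside the member levels of the whole library, and the link between them was not tested. T-gated nuclei made up 1.47 ± 0.0988% of nuclei in the 3 WD tumour livers, 0.511 ± 0.708% in the 2 RD tumour livers and 2.18 ± 0.978% in the 3 RD no tumour livers (mean ± SD over livers). Myeloid-gated nuclei made up 24.96 ± 22.3%, 39.6 ± 31.8% and 21.9 ± 12.6%, and endothelial-gated nuclei 10.9 ± 1.74%, 8.95 ± 6.60% and 14.0 ± 3.43% in the same order. Set as log2 ratios of the 5 tumour-bearing to the 3 tumour-free livers, the differences were -1.94 for T-gated, -1.60 for NK-gated, 0.32 for myeloid-gated and -0.54 for endothelial-gated nuclei. Without RD tumour 1, which had 0.01% T-gated and 0% NK-gated nuclei, they were -0.59 for T-gated, -0.53 for NK-gated and -0.02 for myeloid-gated nuclei. None passed a two-sided exact permutation test over livers (p = 0.393, 0.393, 0.625 and 0.286; adjusted over the 4 classes 0.524, 0.524, 0.625 and 0.524).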

How the data were processed

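Single-nucleus libraries of 8 mouse livers were analysed from raw UMI counts per gene and barcode, as the authors deposited them; the counts were made with Cell Ranger 7.0.0 on build mm10, per the submitters' processing notes. Barcodes with at least 300 detected genes were kept. Nuclei were gated by at least 3 class markers, more than of any other class. Hepatocytes needed at least 5 of their own markers and fewer than 2 of every other class. No doublet caller was run, and alternatives removed nuclei with markers of several classes or the top 5% by UMIs. Raw counts were summed per mouse and class, with at least 20 nuclei, and tested with edgeR 4.0.16 (quasi-likelihood, TMM scaling, filterByExpr, all 3 groups in 1 model, Benjamini-Hochberg over all genes), with DESeq2 1.42.0 as an alternative, in R 4.3.3. The procedure was tested on simulated data. Shares were compared by exact permutation over mice. Levels carry exact Poisson intervals at 95% confidence.

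The members and lists were chosen with earlier results of these data known. Named genes were all 10 members. Of each list, the 3 genes with the most UMIs and up to 3 with the largest fold change among those whose WD tumour and RD no tumour groups did not overlap were named, as were the 3 genes most like each member in log2(CPM + 1). The gate above free RNA (Poisson upper tail under 1e-06), the fits without 3 myeloid-rich libraries, the hepatocyte zones and the paired genes within T-gated nuclei were chosen after seeing the data. Gene positions are from GENCODE M21, in which 32158 of 32285 gene IDs were found.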

Additional observations from a re-analysis of the deposited data

How the results depend on the processing

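The numbers of members called stayed at 0 under every alternative run other than leaving out 1 library: normalization, low-count filter, DESeq2, gates at 2 and 4 markers, exclusive gate, gate above free RNA and the filters on nuclei. Leaving out each library in turn gave 0 to 1 called member in the whole library and in endothelial-gated nuclei, in each contrast with RD tumour, and 0 to 2 and 0 to 4 in myeloid-gated nuclei (RD tumour against RD no tumour and WD tumour against RD tumour). All of these calls came without RD tumour 2, where RD tumour 1 is the lone liver and the spread is taken from the other groups. Counts over all genes, 0 in each main comparison, were 36, 64 and 109 with DESeq2 in the whole library and 37 in T-gated nuclei without the low-count filter.

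Tigit in RD tumour against RD no tumour ranged from -2.48 to 3.46 (log2) when 1 library was left out, and was -2.66 without the 3 myeloid-rich libraries. In WD tumour against RD tumour it ranged from -4.19 to 1.76, and was 1.79 without those 3. Cd274 in RD tumour against RD no tumour ranged from -0.66 to 3.38. The lower Entpd1 in myeloid-gated nuclei of RD tumour than RD no tumour livers kept its sign in all 21 alternatives, from -1.97 to -0.91. Tox in T-gated nuclei, WD tumour against RD no tumour, stayed between 0.64 and 1.36 over 20 alternatives. In the alternative that kept nuclei with at most 5% mitochondrial UMIs, WD tumour 1 had only 15 T-gated nuclei. It fell below the limit of 20 and was not part of that fit.

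The myeloid share difference reversed to -0.088 with the exclusive gate, -1.43 with the gate above free RNA and -0.072 without the 3 myeloid-rich libraries, and ranged from -0.19 to 0.75 when 1 library was left out. When 1 library was left out, the T share difference ranged from -2.34 to -0.59 and the NK share difference from -2.05 to -0.53, the last of each without RD tumour 1. The NK share difference reversed to 0.18 without those 3. The cause was not tested in any of these.

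With the replicate number as a block, 0 members were called in each fit. Deviations of same-numbered libraries correlated between -0.530 and 0.439, so the numbers were not taken to pair the samples. Depth limits the T- and NK-gated values: a limit of 3 counts stands for 6.27 to 19.9 CPM in T-gated nuclei of the 7 livers, and NK-gated nuclei were too few for a comparison.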
